A study of Homo sapiens with 6 samples.

Results

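The genes of the bone morphogenetic protein (BMP) pathway considered here were 10 of the 46427 genes in the deposited table, found by an exact match of their symbols: the ligands *BMP2*, *BMP4* and *BMP7*, the receptors *BMPR1A* and *BMPR2*, the inhibitory SMADs *SMAD6* and *SMAD7*, and the target genes *ID1*, *ID2* and *ID3*. RNA was sequenced from HCT116, a human colon carcinoma cell line, as 3 replicates of parental cells (*ZK3*-WT) and 3 replicates of cells in which both alleles of *ZKSCAN3*, a zinc finger transcription factor, had been mutated by CRISPR/Cas9 at the start codon of the first exon (*ZK3*-KO). All libraries were made from polyadenylated RNA of cells grown in DMEM with serum, with no further treatment. The *ZK3*-KO cells had been selected with puromycin and expanded from single cells, and the number of clones sequenced is not given in the sources used here, so the mutation and the clone cannot be told apart. The replicates are described only as biological triplicates. P-values set the difference between genotypes against the spread among the libraries of each genotype. Whether that spread includes any between knockout clones is not known.

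BMP ligands are secreted dimers that bind a complex of type I receptors, such as BMPR1A, and type II receptors, such as BMPR2. The activated type I receptor phosphorylates SMAD1, SMAD5 and SMAD9, which enter the nucleus with SMAD4 and turn on target genes. The best known targets encode the ID proteins, helix-loop-helix proteins without a DNA-binding region that capture E proteins and so keep them from DNA, and the inhibitory SMADs, which act back on the receptors. In the colon, BMP signalling is strongest toward the differentiated end of the crypt, and germline loss of *BMPR1A* or *SMAD4* causes juvenile polyposis.

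Between 60827060 and 69739215 reads were counted per library. *ZK3*-KO replicate 3 stood apart: across all genes its log2(CPM + 1) had a Pearson correlation of 0.973 and 0.961 with *ZK3*-KO replicates 1 and 2, where the other pairs within a genotype had 0.991 to 0.995. Differences between the genotypes are therefore given both with and without that library. *ZKSCAN3* itself was counted at 28.1, 23.4 and 19.8 TMM-normalized CPM (reads scaled to library size) in the *ZK3*-WT libraries, against 25.4, 24.9 and 13.6 CPM in the *ZK3*-KO libraries. Here and below, values per library follow the order of replicates 1, 2 and 3. The log2 fold change of *ZKSCAN3* (*ZK3*-KO against *ZK3*-WT) was -0.16 (SE 0.27, false discovery rate over all tested genes, FDR = 0.797 by edgeR's quasi-likelihood test), or 0.09 (FDR = 0.766) once *ZK3*-KO replicate 3 was left out. Reads over the whole gene do not test for a deletion at its start codon, so this level does not check the labels. The 8 epithelial markers were all counted, with a summed level of 3460 to 4430 CPM in *ZK3*-WT and 3040 to 6400 CPM in *ZK3*-KO libraries. Of the other markers, *PTPRC* and *CD3E* (leukocytes) were at 0 reads in every library and *DCN* and *LUM* (fibroblasts) had 2 reads each over all 6, while *COL1A1*, of the fibroblast list, reached 98.8 CPM in *ZK3*-KO replicate 3. The summed fibroblast list was at 44.8 to 57 CPM in *ZK3*-WT and 32.8 to 99.3 CPM in *ZK3*-KO libraries, the endothelial list at 1.03 to 1.86 and 0.462 to 1.15 CPM, and the immune list at 2.98 to 10.2 and 1.69 to 8.22 CPM.

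All 10 genes passed the expression filter, *BMP2* only through its level in *ZK3*-KO cells. At an FDR of 0.05, *BMP2* rose and *ID3* fell in *ZK3*-KO cells, 2 of 10 genes, where 2.05% of the 18366 genes tested passed (0.817% higher and 1.23% lower). Since the filter admitted *BMP2* only through its *ZK3*-KO level, *BMP2* had to differ. Nothing is read from this share or from the place of *BMP2* in the counts that follow. The levels of the genotypes did not overlap for 5 of the 10 genes, 2 higher (*BMP2*, *ID2*) and 3 lower (*BMP7*, *ID3*, *SMAD6*) in *ZK3*-KO cells, where 26.6% of all tested genes did not overlap (12.7% higher and 13.8% lower). The median log2 fold change was -0.39 over the 10 genes and 0.02 over all genes tested. Without *ZK3*-KO replicate 3, *BMP2*, *ID1*, *ID3* and *SMAD7* passed, 4 of 10 genes, where 15.1% of the genes tested passed (7.41% higher and 7.73% lower). With the replicate number as a block the same 2 genes passed, where 2.51% of all tested genes did.

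**Figure D1:**
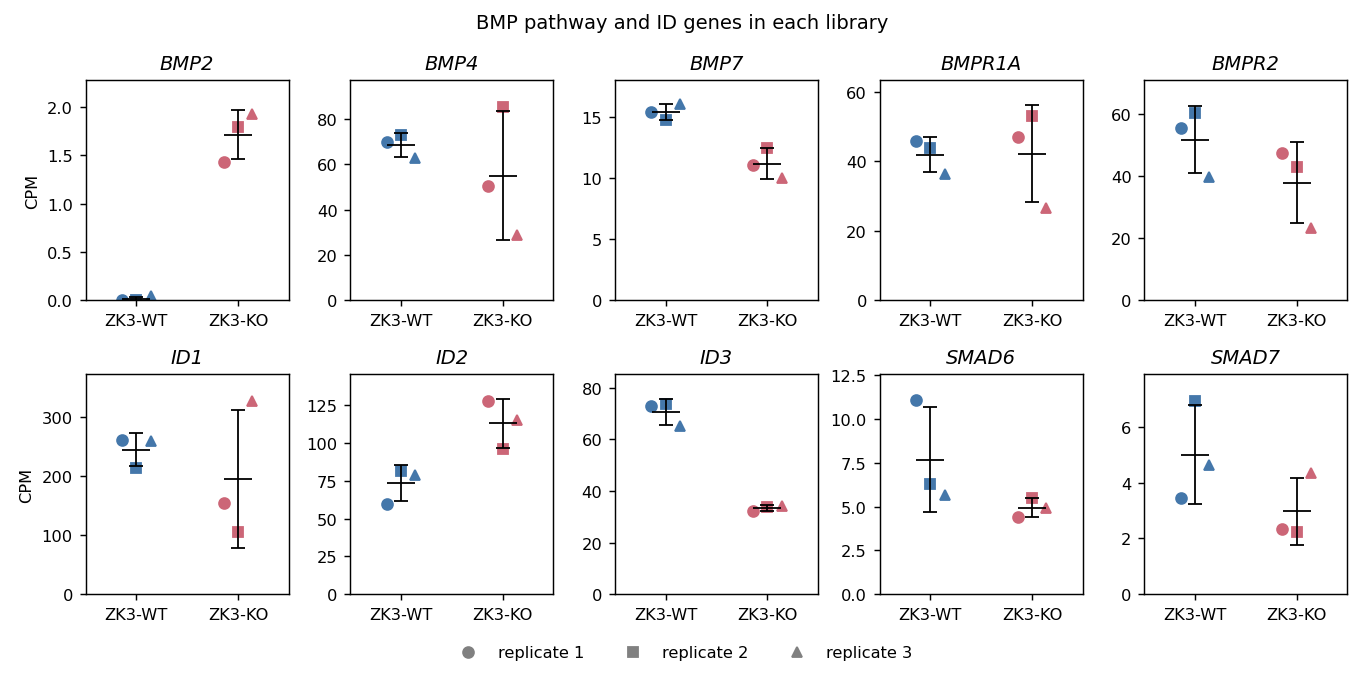
TMM-normalized CPM of the 10 genes in each library; the horizontal axis gives the genotype, symbols mark replicates 1 to 3, and bars give the mean and SD over 3 libraries. *BMP2* was at or near 0 in *ZK3*-WT libraries and at 1.43 to 1.93 CPM in *ZK3*-KO libraries, the *ID3* points fell into separate groups, and *BMP4* and *ID1* spread widely among the *ZK3*-KO libraries.

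Levels of different genes were compared on the authors' TPM scale, which accounts for transcript length. Over the 6 libraries, *ID1* had the highest mean level, 429 TPM (215 to 535 TPM), followed by *ID2* at 144 TPM (95.8 to 205 TPM), *ID3* at 113 TPM (59.8 to 168 TPM) and *BMP4* at 66.4 TPM (25.4 to 92.2 TPM). The receptors were lower, *BMPR1A* at 13.4 TPM (6.86 to 17.2 TPM) and *BMPR2* at 7.67 TPM (3.2 to 10.8 TPM), beside *BMP7* at 6.78 TPM (4.17 to 8.37 TPM). *SMAD6* had a mean of 2.69 TPM (1.74 to 4.89 TPM), *SMAD7* of 2.65 TPM (1.5 to 4.83 TPM) and *BMP2* of 0.467 TPM (0 to 1.04 TPM). Neighbours in this order had separate ranges at 3 places, *ID1* above *ID2*, *BMP4* above *BMPR1A* and *SMAD7* above *BMP2*, and overlapped at the others. The FPKM values gave the same order over the 6 libraries. The order pools the genotypes: among *ZK3*-WT means, *ID3* (157 TPM) was above *ID2* (120 TPM) and *SMAD7* (3.49 TPM) above *SMAD6* (3.4 TPM), whereas *ZK3*-KO means followed the pooled order for both pairs.

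Among the ligands, *BMP2* appeared in *ZK3*-KO cells from a level at the limit of counting. *BMP2* (NCBI Gene 650; GRCh37 chromosome 20, 6748333 to 6760893, forward strand) encodes a ligand with high affinity for BMPR1A. It had 0, 0 and 3 reads in the *ZK3*-WT libraries, against 92, 124 and 119 reads in the *ZK3*-KO libraries. These are 0, 0 and 0.0429 CPM against 1.43, 1.79 and 1.93 CPM, a mean of 0.0143 ± 0.0248 against 1.71 ± 0.257 CPM (SD, n = 3). Every *ZK3*-KO library was above every *ZK3*-WT library. A count of 0 allows up to 0.0428 to 0.0477 CPM in the *ZK3*-WT libraries without reads, taking 3 reads as the limit. The ratio of the summed reads, 335 against 3 and scaled for depth, was 116 (95% exact interval 39.3 to 565, counting error only). The FDR of *BMP2* was 0.00977 with edgeR's test, 0.00123 without *ZK3*-KO replicate 3, but 0.0601 and 0.068 when *ZK3*-WT replicate 1 or 2 was left out. *BMP2* passed the filter only through its *ZK3*-KO reads, so nothing is read from these FDR values or from the separation of the groups. *BMP2* stayed a small part of the summed ligand TPM, 1.36%, 1.05% and 2.97% in the *ZK3*-KO libraries, against 0%, 0% and 0.0221% in *ZK3*-WT. The tested protein-coding genes with positions nearest to *BMP2* on each side were *FERMT1*, 644 kb away, and *TMX4*, 1200 kb away. These neighbours were looked up after the *BMP2* values were known. *FERMT1*, which encodes the epithelial integrin adaptor kindlin-1, was at 38.2, 42.5 and 39.9 CPM in the *ZK3*-WT libraries, against 67.1, 76.2 and 69 CPM in *ZK3*-KO libraries, a log2 fold change of 0.82 (SE 0.13, FDR = 0.0293 by edgeR; 0.84 and 0.00662 without *ZK3*-KO replicate 3). *TMX4* had a log2 fold change of 0.04 (FDR = 0.936 by edgeR; 0.13 and 0.647 without *ZK3*-KO replicate 3).

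*BMP4* (NCBI Gene 652; chromosome 14, 54416454 to 54425479, reverse strand), a close relative of *BMP2*, was the most abundant ligand of the 3. It was at 69.8, 73.1 and 62.7 CPM in the *ZK3*-WT libraries, against 50.5, 85.4 and 29 CPM in the *ZK3*-KO libraries. *ZK3*-KO libraries lay both above and below the *ZK3*-WT range, and the lowest was replicate 3. Between the genotypes the log2 fold change was -0.32 (SE 0.35, 95% interval -1.13 to 0.5, FDR = 0.678 by edgeR), and -0.01 (-0.48 to 0.47, FDR = 0.986) without *ZK3*-KO replicate 3. Without *ZK3*-KO replicate 2, the library with the highest level, it was -0.79 (FDR = 0.233). *BMP4* made up 89% to 91.2% of the summed TPM of *BMP2*, *BMP4* and *BMP7* in *ZK3*-WT and 83.4% to 92.5% in *ZK3*-KO libraries. It lies on chromosome 14, where the median log2 fold change of 504 tested genes was 0.51 (0.48 without *ZK3*-KO replicate 3), against -0.39 on chromosome 21 and -0.06 to 0.14 on the remaining autosomes and chromosome X.

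*BMP7* (NCBI Gene 655; chromosome 20, 55743809 to 55841697, reverse strand) encodes a ligand that prefers the type I receptor ACVR1. It was at 15.4, 14.8 and 16.1 CPM in the *ZK3*-WT libraries, against 11.1, 12.5 and 10 CPM in the *ZK3*-KO libraries, 15.4 ± 0.656 against 11.2 ± 1.25 CPM (SD, n = 3). The groups did not overlap, but the log2 fold change of -0.46 (SE 0.16, 95% interval -0.83 to -0.08) did not pass the test over all genes (FDR = 0.198 by edgeR, 0.136 without *ZK3*-KO replicate 3).

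The receptors did not pass the test. *BMPR1A* (NCBI Gene 657; chromosome 10, 88516353 to 88692582, forward strand), a type I receptor kinase, was at 45.7, 43.7 and 36.2 CPM in the *ZK3*-WT libraries, against 47, 53.1 and 26.5 CPM in the *ZK3*-KO libraries. The *ZK3*-KO libraries held both the highest and the lowest value. Its log2 fold change was 0.01 (SE 0.26, 95% interval -0.6 to 0.62, FDR = 0.988 by edgeR), became -0.06 with library totals alone, -0.02 with upper-quartile factors and -0.15 on the TPM scale, and was 0.26 (-0.08 to 0.6, FDR = 0.261) without *ZK3*-KO replicate 3. Its pseudogenes *BMPR1AP1* and *BMPR1AP2* had 12 to 54 reads per library, against 1635 to 3680 reads on *BMPR1A*. *BMPR2* (NCBI Gene 659; chromosome 2, 203241050 to 203432474, forward strand), the type II receptor kinase, was at 55.4, 60.1 and 39.6 CPM in the *ZK3*-WT libraries, against 47.4, 43 and 23.1 CPM in *ZK3*-KO libraries. Its groups overlapped, with a log2 fold change of -0.45 (SE 0.29, 95% interval -1.13 to 0.23, FDR = 0.455 by edgeR) and of -0.19 (-0.61 to 0.23, FDR = 0.524) without *ZK3*-KO replicate 3. With all libraries, changes of either sign lay within both intervals.

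The inhibitory SMADs had lower means in *ZK3*-KO cells. *SMAD6* (NCBI Gene 4091; chromosome 15, 66994574 to 67075187, forward strand), which acts mainly against BMP receptors, was at 11.1, 6.28 and 5.64 CPM in the *ZK3*-WT libraries, against 4.42, 5.51 and 4.9 CPM in the *ZK3*-KO libraries. The groups did not overlap, although the highest *ZK3*-KO value was just under the lowest *ZK3*-WT value. *SMAD6* had a log2 fold change of -0.63 (SE 0.29, 95% interval -1.31 to 0.05, FDR = 0.307 by edgeR), or of -0.61 (FDR = 0.194) without *ZK3*-KO replicate 3. Without *ZK3*-WT replicate 1, the highest library, the difference was -0.27 (FDR = 0.607). *SMAD7* (NCBI Gene 4092; chromosome 18, 46446223 to 46477335, reverse strand), which acts against both BMP and TGF-β receptors, was at 3.44, 6.92 and 4.62 CPM in the *ZK3*-WT libraries, against 2.33, 2.22 and 4.35 CPM in *ZK3*-KO libraries. *ZK3*-KO replicate 3 lay within the *ZK3*-WT range and the other two below it. *SMAD7* had a log2 fold change of -0.75 (SE 0.37, FDR = 0.338 by edgeR) with all libraries, and it fell by 1.13 on the log2 scale (SE 0.32, FDR = 0.0439) without *ZK3*-KO replicate 3. Without *ZK3*-WT replicate 2, the highest library, the difference was -0.44 (FDR = 0.772).

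**Figure D2:**
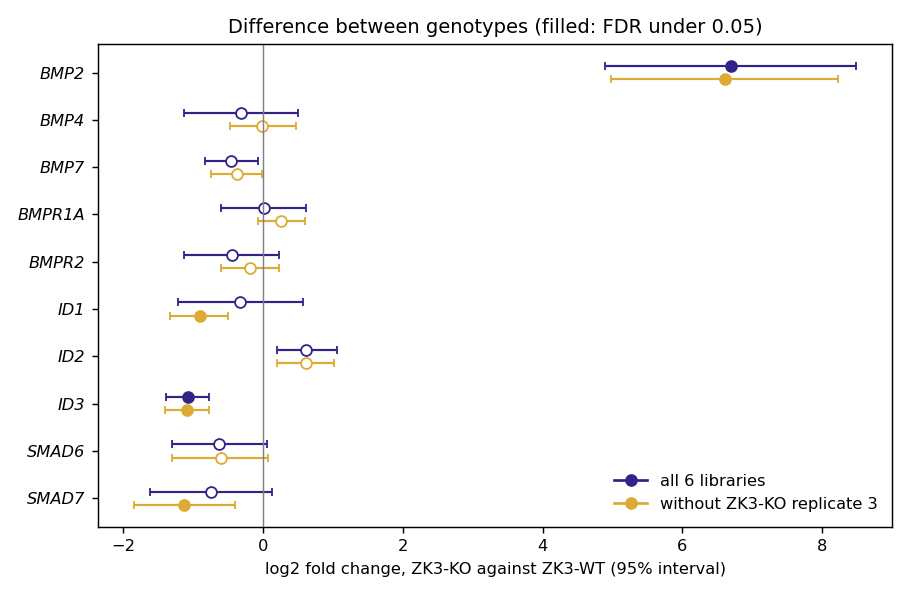
Log2 fold change of *ZK3*-KO against *ZK3*-WT cells on the horizontal axis for each of the 10 genes, from edgeR, with *ZK3*-KO replicate 3 and without it; lines are 95% intervals and filled points passed an FDR of 0.05. *BMP2* and *ID3* passed in both fits, *ID1* and *SMAD7* only without that library. *BMP2* entered the test only through its *ZK3*-KO level, and its fitted value depends on the small count added to libraries without reads.

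The *ID* genes did not follow each other: *ID3* fell, *ID2* was higher in every *ZK3*-KO library and *ID1* was split among the *ZK3*-KO libraries. Stretches of 250 bases before their RefSeq transcription starts are shown because these promoters are the textbook end point of the pathway. The gene positions given below come from another annotation. There the *ID2* window lies inside the gene, and the *ID1* window ends just past the gene start. The sequences are from the RefSeq promoter table and were located by their only exact match in GRCh37, at chr20:30192842-30193091 (forward strand) for *ID1*, chr2:8821936-8822185 (forward strand) for *ID2* and chr1:23885993-23886242 (reverse strand) for *ID3*. Capitals mark CAGAC, the SMAD-binding element, on either strand.
ID1: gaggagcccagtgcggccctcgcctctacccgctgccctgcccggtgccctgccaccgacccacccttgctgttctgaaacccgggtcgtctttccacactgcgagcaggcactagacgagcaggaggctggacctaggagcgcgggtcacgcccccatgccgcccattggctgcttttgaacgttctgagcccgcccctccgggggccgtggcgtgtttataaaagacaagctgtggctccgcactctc
ID2: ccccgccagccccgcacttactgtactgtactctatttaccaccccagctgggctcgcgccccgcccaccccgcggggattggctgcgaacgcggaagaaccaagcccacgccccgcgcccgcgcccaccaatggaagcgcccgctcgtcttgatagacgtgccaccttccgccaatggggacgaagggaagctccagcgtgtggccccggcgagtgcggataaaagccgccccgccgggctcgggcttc
ID3: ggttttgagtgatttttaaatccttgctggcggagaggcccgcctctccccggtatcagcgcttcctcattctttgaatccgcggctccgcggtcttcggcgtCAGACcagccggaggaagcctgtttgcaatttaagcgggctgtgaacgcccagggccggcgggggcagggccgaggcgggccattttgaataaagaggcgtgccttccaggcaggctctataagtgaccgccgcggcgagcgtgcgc
The *ID3* promoter held CAGAC once, with its first base at -147 from the start, and those of *ID1* and *ID2* held none in this window. CAGAC or its reverse complement occurred in 6 of the 12 promoters listed for the 8 genes matched in the promoter table (those of *BMP4*, *BMPR2*, *ID3* and *SMAD7*), beside 38.0% of 35116 promoters of the same length. GGCGCC, a GC-rich element of BMP-responsive SMADs, occurred in 2 of these 12 promoters (*BMP4*, *BMPR2*), beside 16.4% of all promoters. CANNTG, the E-box bound by E proteins, occurred in 6 of the 12 (*BMP4*, *BMPR1A*, *BMPR2*, *ID2*, *SMAD7*), beside 61.8% of all promoters. These are letter matches and not measured sites. The *ID* windows had more CpG than the median promoter, with 19 in *ID1*, 29 in *ID2* and 24 in *ID3* against a median of 11. Of all promoters, 65.4% had fewer CpG than *ID1*, 85.9% fewer than *ID2* and 76.3% fewer than *ID3*.

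*ID3* (NCBI Gene 3399; chromosome 1, 23884417 to 23885992, reverse strand) was at 73.1, 73.7 and 65 CPM in the *ZK3*-WT libraries, against 32.2, 33.9 and 34 CPM in the *ZK3*-KO libraries. The *ZK3*-KO libraries lay close together and far below the lowest *ZK3*-WT library, and *ZK3*-KO replicate 3 did not stand apart. The mean was 70.6 ± 4.86 CPM in *ZK3*-WT and 33.4 ± 0.991 CPM in *ZK3*-KO cells (SD, n = 3), 2.12-fold lower. *ID3* had a log2 fold change of -1.08 (SE 0.13, 95% interval -1.39 to -0.78, FDR = 0.0112 by edgeR), or of -1.09 (SE 0.14, FDR = 0.00244) without *ZK3*-KO replicate 3. The call was also kept without *ZK3*-KO replicate 2 (FDR = 0.0419) and was lost in the other 4 fits with 1 library left out: the FDR was 0.0644, 0.0998 and 0.0651 without *ZK3*-WT replicate 1, 2 or 3 and 0.0868 without *ZK3*-KO replicate 1, at log2 fold changes of -1.14 to -1.05. In bulk RNA, fewer cells with the transcript and less transcript per cell cannot be told apart. The tested protein-coding genes with positions nearest to *ID3* on each side were *E2F2* at 26.7 kb and *RPL11* at 132 kb. Their log2 fold changes were 0.99 (FDR = 0.353 by edgeR) and 0.16 (FDR = 0.736 by edgeR). That of *RPL11* was -0.07 (FDR = 0.71 by edgeR) without *ZK3*-KO replicate 3. *E2F2*, a cell cycle transcription factor, rose by 1.41 on the log2 scale (FDR = 0.00744) without *ZK3*-KO replicate 3.

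*ID2* (NCBI Gene 3398; chromosome 2, 8818975 to 8824591, forward strand) was at 59.8, 81.4 and 79.1 CPM in the *ZK3*-WT libraries, against 128, 96 and 115 CPM in the *ZK3*-KO libraries. Every *ZK3*-KO library was above every *ZK3*-WT library, at a mean of 113 ± 16.1 against 73.4 ± 11.9 CPM (SD, n = 3). The log2 fold change of 0.62 (SE 0.18, 95% interval 0.2 to 1.05) did not pass the test over all genes (FDR = 0.14 by edgeR). It was 0.61 (FDR = 0.0524) without *ZK3*-KO replicate 3, and passed at FDR = 0.0463 with DESeq2. The pseudogene *ID2B* had at most 5 reads and the neighbouring antisense transcript *ID2-AS1* at most 44 reads, against 3758 to 8237 reads on *ID2*.

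*ID1* (NCBI Gene 3397; chromosome 20, 30193086 to 30194318, forward strand) was at 262, 213 and 260 CPM in the *ZK3*-WT libraries, against 154, 105 and 327 CPM in the *ZK3*-KO libraries. *ZK3*-KO replicates 1 and 2 were the lowest of the 6 libraries and *ZK3*-KO replicate 3 was the highest. On the TPM scale *ZK3*-KO replicate 3, at 535 TPM, was close to *ZK3*-WT replicates 1 and 3, at 532 and 529 TPM. The log2 fold change was -0.33 (SE 0.39, 95% interval -1.22 to 0.57, FDR = 0.706 by edgeR) with all libraries. Without *ZK3*-KO replicate 3, *ID1* fell by 0.91 on the log2 scale (SE 0.18, 95% interval -1.33 to -0.5, FDR = 0.0148). Without *ZK3*-KO replicate 2 the difference was -0.03 (FDR = 0.978).

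**Figure D3:**
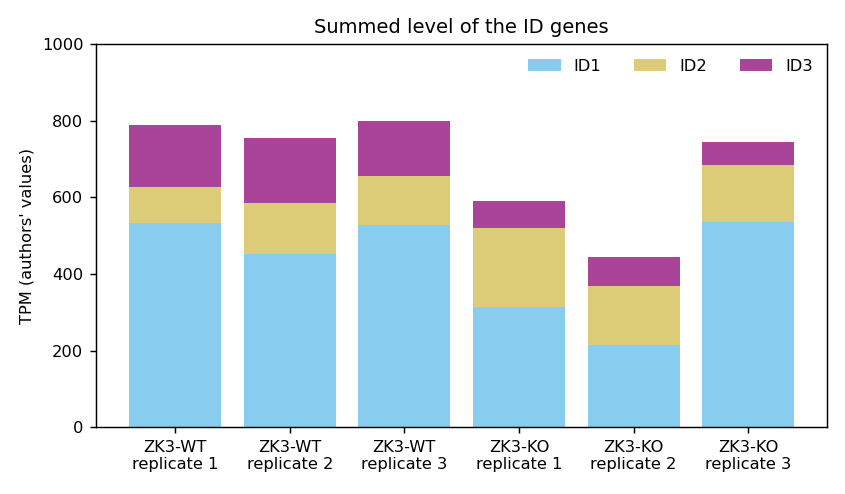
Summed TPM of *ID1*, *ID2* and *ID3* in each library (vertical axis, authors' TPM; bars start at 0). The sum was 754 to 799 TPM in *ZK3*-WT libraries and 590, 444 and 744 TPM in the *ZK3*-KO libraries, and the *ID3* segment was smaller in every *ZK3*-KO bar.

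On the TPM scale, the make-up of the *ID* transcripts differed between the genotypes, given here as a description. The ratio of *ID2* to *ID3* was 0.598, 0.807 and 0.89 in the *ZK3*-WT libraries, against 2.9, 2.07 and 2.49 in the *ZK3*-KO libraries. So *ID3* was the more abundant of this pair in each *ZK3*-WT library and *ID2* in each *ZK3*-KO library. *ID3* made up 17.9% to 22.3% of the summed *ID* TPM in *ZK3*-WT and 8.04% to 16.7% in *ZK3*-KO libraries, and *ID2* made up 12.2% to 18% and 20% to 34.8%. The share of *ID1* overlapped, at 59.8% to 67.5% in *ZK3*-WT against 53.2%, 48.5% and 72% in the *ZK3*-KO libraries.

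The E proteins are the partners that ID proteins capture. *TCF3*, the most abundant of their genes at 78.1 TPM, was at 161 ± 7.75 CPM in *ZK3*-WT and 183 ± 21.8 CPM in *ZK3*-KO cells (SD, n = 3; log2 fold change 0.18, FDR = 0.576 by edgeR; 0.26 and 0.196 without *ZK3*-KO replicate 3). *TCF12* was at 125 ± 16.9 and 98.2 ± 18.2 CPM (log2 fold change -0.35, FDR = 0.379 by edgeR; -0.21 and 0.398 without *ZK3*-KO replicate 3), and *TCF4* was listed at 0 reads in every library. The summed *ID* TPM was 5.94 to 7.31 times the summed TPM of the E protein genes in *ZK3*-WT libraries and 4.97, 3.26 and 8.98 times in the *ZK3*-KO libraries, so the groups overlapped.

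**Figure D4:**
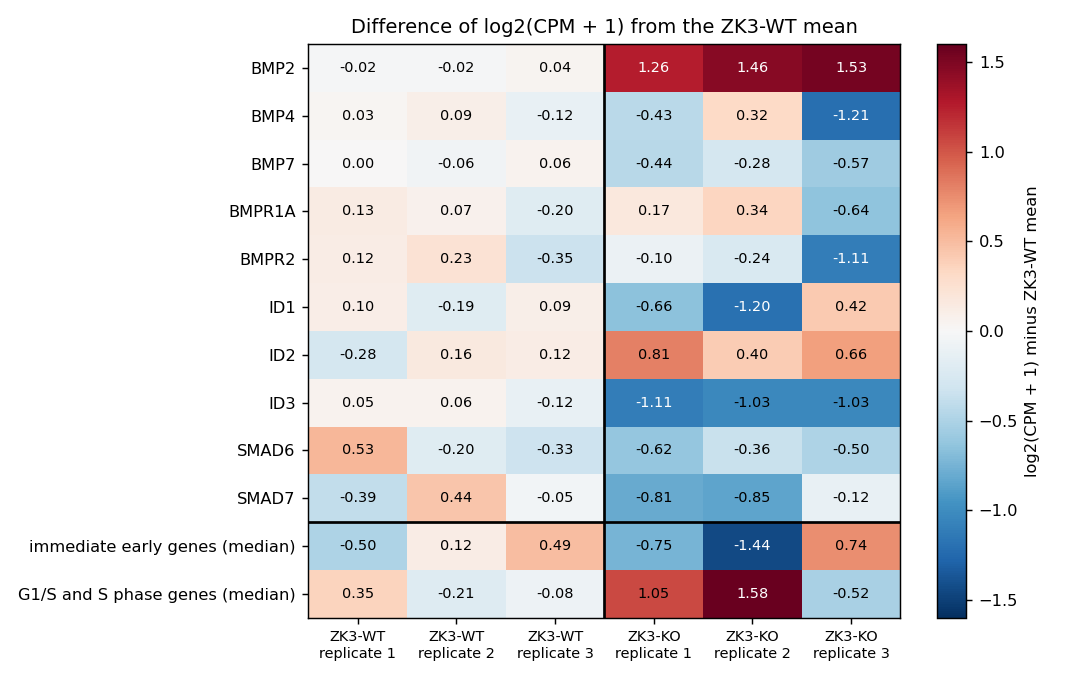
Difference of log2(CPM + 1) from the *ZK3*-WT mean (colour and printed value) for the 10 genes and the medians of 2 context lists (rows) in each library (columns). *BMP2* was higher and *ID3* lower in all 3 *ZK3*-KO libraries, while *ID1* and both context lists changed sign in *ZK3*-KO replicate 3. *BMP2* passed the filter only through its *ZK3*-KO level.

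The spread among the *ZK3*-KO libraries was unequal over the 10 genes. *BMP4*, *BMP7*, *BMPR1A* and *BMPR2* had their lowest value of all 6 libraries in *ZK3*-KO replicate 3, whereas *BMP2*, *ID1*, *ID3* and *SMAD7* had their highest *ZK3*-KO value there, *ID3* by a narrow margin. Lists of other genes also had other values in that library. The median deviation of 9 immediate early genes (*FOS*, *EGR1* and others, which respond to growth signals within minutes) from their *ZK3*-WT mean took the values -0.75, -1.44 and 0.74 over the *ZK3*-KO libraries, against -0.5 to 0.49 in *ZK3*-WT libraries. Their summed level was 805 to 2020 CPM in *ZK3*-WT and 428 to 2280 CPM in *ZK3*-KO libraries. The median of 9 G1/S and S phase genes (*MCM2*, *PCNA* and others) took the values 1.05, 1.58 and -0.52, against -0.21 to 0.35 in *ZK3*-WT libraries. Their summed level was 843 to 1200 CPM in *ZK3*-WT and 666 to 2690 CPM in *ZK3*-KO libraries. With all libraries 0 of 9 passed in each list (edgeR; 0 of 9 immediate early genes and 1 of 9 G1/S genes at an unadjusted p under 0.05, where 18.4% of all tested genes were). Without *ZK3*-KO replicate 3, 2 of 9 immediate early genes passed as lower, where 7.73% of all tested genes did, and 9 of 9 G1/S genes as higher, where 7.41% did. Their part in the *ID1* and *SMAD7* values was not tested.

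Beyond the 10 genes, 66 further genes of the pathway were listed, of which 43 were tested. With all libraries 3 of the 43 passed, all lower in *ZK3*-KO cells (*BMP5*, *ATOH8*, *RUNX2*), where 2.05% of all tested genes passed, and 11 had an unadjusted p under 0.05, where 18.4% of all tested genes did. The filter admitted *BMP5* only through its *ZK3*-WT level, so *BMP5* had to be lower. Nothing is read from the share that passed or from the place of *BMP5* in the other counts of this paragraph. The median log2 fold change of the 43 was -0.22, beside 0.02 over all genes tested. Without *ZK3*-KO replicate 3, 9 of 45 passed, 1 higher and 8 lower, where 15.1% of all tested genes passed.

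*BMP5* (chromosome 6, 55618451 to 55740388, reverse strand), a ligand of the *BMP7* subgroup, had 58, 52 and 36 reads in the *ZK3*-WT libraries, against 0 reads in each *ZK3*-KO library. At 0.922, 0.742 and 0.515 CPM it was weakly expressed in *ZK3*-WT cells, and it passed the filter only through them. Against a limit of 3 reads per library it was at least 15.7-fold lower in *ZK3*-KO cells (FDR = 0.0154 by edgeR, 0.00257 without *ZK3*-KO replicate 3). The call was lost without *ZK3*-WT replicate 1, 2 or 3 or *ZK3*-KO replicate 1 (FDR = 0.0875, 0.113, 0.0651 and 0.0543). Of the other 10 ligand genes, 3 were tested and 0 passed, and 6 were at 0 reads in every library (*GDF2*, *BMP10* and others). The most abundant, *BMP8B* at 13 TPM, was at 26 ± 1.91 CPM in *ZK3*-WT and 29.3 ± 3.44 CPM in *ZK3*-KO cells (SD, n = 3; log2 fold change 0.17, FDR = 0.603 by edgeR; 0.27 and 0.203 without *ZK3*-KO replicate 3). *BMP2* and *BMP5* were each at under 2 CPM. Each passed the filter through a single genotype, so nothing is read from their opposite directions.

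**Figure D5:**
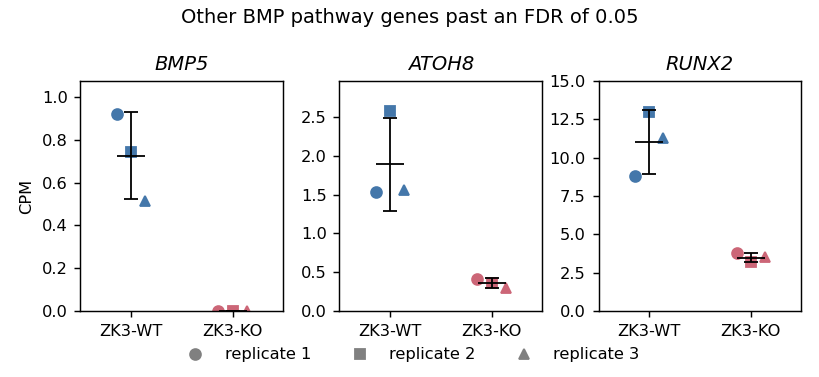
TMM-normalized CPM of *BMP5*, *ATOH8* and *RUNX2* by genotype; symbols mark replicates 1 to 3, and bars give the mean and SD over 3 libraries. Every *ZK3*-KO point lies below every *ZK3*-WT point, and *BMP5* had no reads in *ZK3*-KO cells. *BMP5* entered the test only through its *ZK3*-WT level.

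Of 10 further BMP target genes, 7 were tested and 2 fell, where 1.23% of all tested genes did. *RUNX2* (chromosome 6, 45295894 to 45632086, forward strand), the master transcription factor of bone-forming cells, was at 8.81, 13 and 11.3 CPM in the *ZK3*-WT libraries, against 3.76, 3.2 and 3.5 CPM in *ZK3*-KO libraries. All 3 *ZK3*-KO values lay far below the lowest *ZK3*-WT value. Its log2 fold change was -1.66 (SE 0.21, FDR = 0.0142 by edgeR), and kept that size without *ZK3*-KO replicate 3 (FDR = 0.0035). The call was lost at FDR = 0.1, 0.087 and 0.0799 without *ZK3*-WT replicate 2 or 3 or *ZK3*-KO replicate 1. *ATOH8* (chromosome 2, 85978467 to 86018506, forward strand), a basic helix-loop-helix factor, was at 1.53, 2.58 and 1.56 CPM in the *ZK3*-WT libraries, against 0.419, 0.361 and 0.291 CPM in *ZK3*-KO libraries, again without overlap. Its log2 fold change was -2.4 (SE 0.35, FDR = 0.0231 by edgeR) and -2.27 (FDR = 0.00765) without *ZK3*-KO replicate 3. The FDR was 0.0724, 0.119, 0.0862, 0.0994 and 0.0644 without *ZK3*-WT replicate 1, 2 or 3 or *ZK3*-KO replicate 1 or 2. *HES1*, a repressor that also answers to Notch, was at 21.5, 29.3 and 27.1 CPM in the *ZK3*-WT libraries, against 11.3, 10.3 and 21.8 CPM in *ZK3*-KO libraries, and passed without *ZK3*-KO replicate 3 only (log2 fold change -1.26, FDR = 0.00437; -0.85 and 0.208 with all). The homeobox gene *MSX1*, the most abundant of the list at 69.9 TPM, was at 69.8 ± 7.15 and 66.2 ± 33 CPM (SD, n = 3; log2 fold change -0.08, FDR = 0.929 by edgeR; -0.55 and 0.0612 without *ZK3*-KO replicate 3). *DLX5* and *HAMP* had 0 reads in every library, and *SP7* had 24 reads over all 6 and was not tested.

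Of 11 other receptors and co-receptors, 9 were tested and 0 passed with all libraries by edgeR, where 2.05% of all tested genes passed. At an unadjusted p under 0.05 there was 1 of 9, where 18.4% of all tested genes were. The co-receptor gene *RGMB* was at 27.5, 33.2 and 30.5 CPM in the *ZK3*-WT libraries, against 18.2, 21 and 19.2 CPM in *ZK3*-KO libraries, without overlap. Its log2 fold change was -0.64 (FDR = 0.0829 by edgeR), and it passed without *ZK3*-KO replicate 3 (-0.63, FDR = 0.0302) and with DESeq2 (FDR = 0.00521). The type I receptor gene *ACVRL1*, best known from endothelium, was at 1.96, 2.38 and 1.69 CPM in the *ZK3*-WT libraries, against 0.963, 0.606 and 1.7 CPM in *ZK3*-KO libraries, and passed without *ZK3*-KO replicate 3 only (log2 fold change -1.35, FDR = 0.0285; -0.88 and 0.301 with all). *NEO1*, the most abundant at 18.6 TPM, encodes a receptor for RGM proteins and was at 68.6 ± 8.65 and 56.9 ± 3.99 CPM (SD, n = 3; log2 fold change -0.27, FDR = 0.386 by edgeR; -0.21 and 0.362 without *ZK3*-KO replicate 3). *BMPR1B* and *HJV* had 14 and 4 reads over all 6 libraries and were not tested.

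Of 16 secreted antagonists, which bind ligands outside the cell, 6 were tested, 0 passed with all libraries by edgeR and 3 had an unadjusted p under 0.05, beside 2.05% and 18.4% of all tested genes. *CHRD* (chordin) was at 16.8, 15.8 and 17.1 CPM in the *ZK3*-WT libraries, against 10.8, 7.41 and 14.4 CPM in *ZK3*-KO libraries, without overlap, with a log2 fold change of -0.61 (FDR = 0.248 by edgeR) and of -0.86 (FDR = 0.022) without *ZK3*-KO replicate 3. *NBL1*, the most abundant at 45.9 TPM, was at 40.5 ± 4.68 CPM in *ZK3*-WT and 51.6 ± 3.71 CPM in *ZK3*-KO cells (SD, n = 3; log2 fold change 0.35, FDR = 0.269 by edgeR; 0.35 and 0.143 without *ZK3*-KO replicate 3). *NOG* (noggin) was at 0.395 and 0.148 CPM on average (log2 fold change -1.4, FDR = 0.176 by edgeR; -1.54 and 0.0936 without *ZK3*-KO replicate 3). The other 10 were not tested, among them *GREM1*, an antagonist made mainly by stromal cells in the colon, with 6 reads over all libraries.

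All 4 transducer SMADs were tested and 0 passed, with 0 at an unadjusted p under 0.05 by edgeR, beside the same shares. *SMAD5*, the most abundant at 28.2 TPM, was at 111 ± 18.7 CPM in *ZK3*-WT and 80.3 ± 30.1 CPM in *ZK3*-KO cells (SD, n = 3; log2 fold change -0.46, FDR = 0.452 by edgeR; -0.19 and 0.489 without *ZK3*-KO replicate 3). *SMAD4*, the shared partner, was at 83.4 ± 3.62 and 70.2 ± 4.05 CPM without overlap (log2 fold change -0.25, FDR = 0.36 by edgeR; -0.2 and 0.307 without *ZK3*-KO replicate 3). All 11 regulators of SMAD signalling were tested, 0 passed with all libraries by edgeR and 3 had an unadjusted p under 0.05, again beside 2.05% and 18.4% of all tested genes. *FKBP1A*, which encodes a protein that holds type I receptors inactive, was the most abundant at 313 TPM and was at 233 ± 15.3 and 227 ± 15.4 CPM (SD, n = 3; log2 fold change -0.04, FDR = 0.922 by edgeR; -0.08 and 0.682 without *ZK3*-KO replicate 3). The ubiquitin ligase gene *SMURF2* was at 321, 362 and 308 CPM in the *ZK3*-WT libraries, against 223, 180 and 311 CPM in *ZK3*-KO libraries, and passed without *ZK3*-KO replicate 3 only (log2 fold change -0.71, FDR = 0.0168; -0.47 and 0.31 with all). *LEMD3*, which encodes an inner nuclear membrane protein that binds SMADs, was at 39.8, 35.9 and 31.6 CPM in the *ZK3*-WT libraries, against 48.1, 54.2 and 20.6 CPM in *ZK3*-KO libraries. It had a log2 fold change of 0.2 (FDR = 0.799 by edgeR) that turned to -0.03 on the TPM scale and -0.06 without *ZK3*-KO replicate 2, and of 0.52 (FDR = 0.045) without *ZK3*-KO replicate 3.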

How the data were processed

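Libraries of polyadenylated RNA were sequenced in pairs, and the authors deposited 1 table with read counts per gene, not normalized, beside FPKM and TPM. The submitters' processing notes name Bowtie2 2.2.5, hg19 and GRCh37, and the methods name an Ensembl annotation in Partek Flow and an ANOVA on TPM, while the table lists NCBI Gene identifiers. Whether counting used strand is not given in the sources used here. The authors' TPM, scaled by transcript length and depth, was used for levels between genes and in 1 alternative, and the deposited FPKM only for their order. Column names were matched to the sample descriptions, and the sample titles gave the replicate numbers.

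The software was R 4.3.3, edgeR 4.0.16 and, for the TPM model, limma 3.58.1. The filterByExpr filter left 18366 of 46427 genes, TMM factors were applied, and the quasi-likelihood test compared the genotypes with no covariate. P-values were adjusted over all tested genes by the Benjamini-Hochberg method (FDR threshold 0.05). SE and 95% intervals were derived from that fit. The SE is the absolute log2 fold change divided by the square root of the F statistic, and the intervals use a t quantile. CPM is TMM-normalized. No library was a copy of another. Depth limits *BMP2*, *BMP5* and *ATOH8*, each at under 3 CPM.

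The members and lists were chosen with earlier results of these data known. Genes named are the 10 members, *ZKSCAN3*, pathway genes past the FDR threshold with all libraries or without *ZK3*-KO replicate 3, the most abundant gene of each list, and genes not tested. Genes mentioned besides, and neighbours of *BMP2* and *ID3*, were chosen after their values were seen. Symbols were looked up in a GRCh37 annotation for positions, found for 87.0% of tested genes. Promoter sequences are from RefSeq (GRCh38.p14). Alternatives were DESeq2 1.42.0, 3 other scalings, 2 other filters, limma on log2(TPM + 1), the replicate number as a block and each library left out. The scripts were tested on simulated counts. Same-numbered libraries of both genotypes departed from their group means alike for replicates 1 and 3 (correlations across genes of 0.473 and 0.616). The correlation for replicate 2, 0.124, lay within the range between different numbers, -0.573 to 0.289. The sources used here do not say what the numbers mark.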

Additional observations from a re-analysis of the deposited data

How the results depend on the processing

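Of the 10 genes, 2 passed with all libraries, 3 with DESeq2 (*ID2* added), 1 when at least 10 reads were required of all libraries, where *BMP2* was not tested, and 0 to 4 with 1 library left out. Of the pathway lists, 3 genes passed, 2 to 4 under the alternatives that keep all libraries, and 0 to 9 with 1 library left out. Over all genes, 376 passed, 1506 with DESeq2, 270 to 461 under the others that keep all libraries, 49 to 158 without another library and 2858 without *ZK3*-KO replicate 3, and the cause was not tested. *ID3* passed in 10 of 14 alternatives, with one direction. *BMP2* passed in 11 of the 13 that tested it, always higher in *ZK3*-KO cells. Since the main filter admitted *BMP2* only through its *ZK3*-KO level, nothing is read from that tally or direction. The fit with the replicate block passed 461 genes and changed no call among the 10 genes (*BMP2* FDR = 0.0111, *ID3* FDR = 0.0215 by edgeR). The log2 fold change of *BMPR1A* turned to -0.06 with library totals alone, -0.02 with upper-quartile factors, -0.15 with limma on TPM, -0.04 with the replicate block, and -0.08, -0.06 and -0.19 without *ZK3*-WT replicate 3, *ZK3*-KO replicate 1 or *ZK3*-KO replicate 2, with 0.26 without *ZK3*-KO replicate 3. That of *ZKSCAN3* ranged from -0.29 without *ZK3*-KO replicate 1 to 0.09 without *ZK3*-KO replicate 3, and that of *LEMD3* turned to -0.03 with limma on TPM and ranged from -0.06 without *ZK3*-KO replicate 2 to 0.52 without *ZK3*-KO replicate 3, the causes of which were not tested. Other scalings moved the median log2 fold change of all genes by at most 0.0835.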
